A study of Mus musculus with 4 samples.

Results

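Vgf and the 9 genes examined with it code for granins, which are packed into dense-core vesicles, and for the proteins that cut prohormones into peptides. They were taken by gene name: Vgf, the granins Scg2, Scg3, Scg5, Chga and Chgb, the inhibitor Pcsk1n, the convertases Pcsk1 and Pcsk2, and the carboxypeptidase Cpe. All 10 were listed on all 4 arrays, out of 22376 genes listed in all. Vgf lies at chr5:137025301-137033351 (GRCm38.p6), and the others lie on chromosomes 1 (Scg2), 2 (Scg5, Chgb and Pcsk2), 8 (Cpe), 9 (Scg3), 12 (Chga), 13 (Pcsk1) and X (Pcsk1n). Peptides are made from larger precursors: a convertase cuts the precursor inside the vesicle, Cpe trims the basic residues left at the cut end, and the vesicle empties when the neuron fires strongly enough. Granins help such vesicles to form and are themselves cut into peptides. VGF is a granin-like precursor whose transcription is known to follow neurotrophins and neuronal activity.

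Sections of 8 mice were measured on Visium spatial arrays, in which barcoded discs capture the 3′ ends of RNA from the tissue above them. The 3 GqCNO mice had received AAV-hM3Dq(Gq)-mCherry on both sides of the midbrain, a virus that gives Cre-expressing cells a receptor that clozapine-N-oxide (CNO) activates, and drank CNO at 300 mg/L with 2% sucrose for 1 week. The 3 GqVeh mice carried the same virus and drank 2% sucrose. The 2 CNO alone mice (CNOAlone in the labels) drank CNO with sucrose and had no virus. All 8 were male DAT (iCre/iCre) mice, so Cre followed the dopamine transporter gene and every group, controls included, was homozygous for the driver; the virus-injected mice were 3 to 4 months old, and all mice were single housed with a running wheel. GqVeh and CNO alone mice are called controls where they are pooled (n = 5).

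A level is given in UMIs (counted RNA molecules) per 10000 of the same region and mouse. Levels are not divided by gene length, so they are compared within a gene. The substantia nigra (SN), ventral tegmental area (VTA) and thalamus came from the midbrain arrays, and the caudoputamen (CP), lateral septal complex (LSX) and white matter from the striatal arrays. One column held 1 to 7 discs and 7779 to 71906 UMIs in the SN and 2 to 49 discs and 25808 to 350222 UMIs in the VTA, against 357 to 560 discs and 4300381 to 7977003 UMIs in the CP. No column was given for the thalamus of 1 GqCNO mouse. Discs in the SN and VTA had been chosen for dopamine neurons and against glia, and the summed dopamine neuron markers reached 15.7 to 44.7 per 10000 in the VTA of GqCNO mice and 59.8 to 91.8 in that of controls. A disc covers several cells, so fewer neurons and less RNA per neuron cannot be told apart. The 4 mice whose sections shared a midbrain and a striatal array are called an array pair, and both pairs held all 3 groups. The labels do not say whether the mice were treated in separate cohorts.

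The promoters of 8 of the 10 genes were read from RefSeq (GRCm38.p6, 250 bases before to 50 after the start of transcription); Vgf and Cpe were not matched. The cAMP response element, which binds the CREB transcription factor, was searched for because Vgf varied with Chga and Scg2 in the CP (Pearson r = 0.81 and 0.78). Other members were more strongly correlated there: Scg5 with Pcsk1n at 0.915 and with Chgb at -0.857. Its full form TGACGTCA, which reads the same on both strands, was in 3 of the 8 promoters, those of Scg2, Chgb and Pcsk1, and in 2.03% of the promoters of 27025 genes. The 5-letter half-site TGACG, searched on both strands and contained in the full form, was in 7 of the 8 and in 23.0% of all; Pcsk1n was without one. The stretches around the full form, and around the half-site of Chga, are shown 5′ to 3′ on the strand of the gene, with the motif in capitals. They lie at chr1:79440063-79440118 (minus strand, Scg2), chr2:132781546-132781601 (Chgb), chr13:75089755-75089810 (Pcsk1) and chr12:102554873-102554925 (Chga, these 3 on the plus strand), and the motif begins 68, 72, 78 and 44 bases before the start. For Pcsk1 the start used was not the outermost one. Its stretch lies inside the listed span of the gene (chr13:75089420-75134861).
Scg2: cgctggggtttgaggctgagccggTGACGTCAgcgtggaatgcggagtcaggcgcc
Chgb: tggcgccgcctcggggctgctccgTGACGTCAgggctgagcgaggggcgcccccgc
Pcsk1: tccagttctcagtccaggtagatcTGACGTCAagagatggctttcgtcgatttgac
Chga: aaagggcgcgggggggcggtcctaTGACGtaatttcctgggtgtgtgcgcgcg
A match describes these letters only, and binding was not measured. In the CP the log2 difference (GqCNO minus all controls) of the genes with the full form was -0.15 (Scg2), -0.02 (Chgb) and 0.00 (Pcsk1). A link between the motif and the CP values was not tested.

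No member passed the test between GqCNO mice and all controls in any of the 6 regions (limma with Benjamini-Hochberg adjustment over all genes tested in the region, adjusted p under 0.05). All 10 genes were tested in the SN, VTA and CP, and 9 in the thalamus, LSX and white matter, where Pcsk1 was too low. The same test was passed by 0.648% of genes in the SN, 1.52% in the VTA, 0.0367% in white matter and 0% in the thalamus, CP and LSX, so a count of 0 members is near the background in each. Before adjustment, 4 of the 57 differences tested had a p under 0.05: those of Vgf in the VTA and in the CP, of Scg2 in the SN and of Chga in the CP. That is 1 of 10 members in the SN, where 7.82% of all genes had such a p, 1 of 10 in the VTA (10.8%), 2 of 10 in the CP (3.7%) and none in the thalamus (3.34%), LSX (3.19%) and white matter (2.96%). The summed level of the 10 genes was 0.739 to 0.922% of UMIs in the VTA of GqCNO mice and 0.779 to 0.841% in that of controls, and in the CP it was 0.535 to 0.609% and 0.484 to 0.586%. The groups overlapped in both sums.

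**Figure D1:**
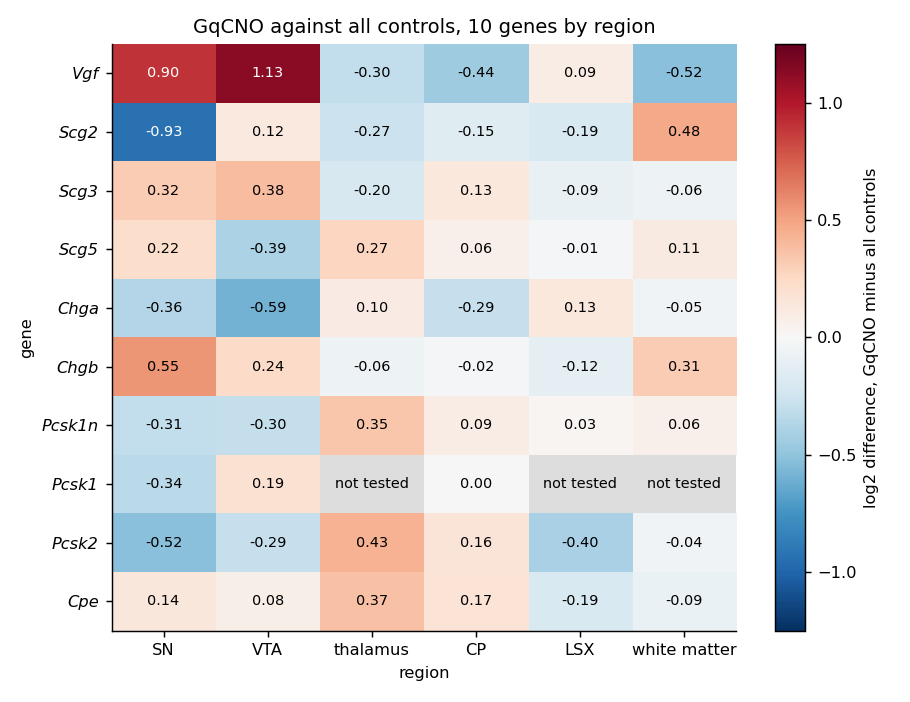
The log2 difference (GqCNO minus all controls) of each of the 10 genes (rows) in each of the 6 regions (columns), from the limma fit; red is higher in GqCNO mice, and grey cells were not tested. Vgf has the largest positive value in the VTA (1.13) and lies below 0 in the CP (-0.44).

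Vgf was the member with the largest difference in the VTA. Its level there was 3.15, 8.93 and 5.72 in the 3 GqCNO mice, against 2.65, 1.55 and 4.10 in GqVeh mice and 1.63 and 1.92 in CNO alone mice. The highest levels were in GqCNO mice, but the lowest of them was under the highest GqVeh mouse, so the groups overlapped. Means were 5.93 ± 2.90 in GqCNO mice and 2.37 ± 1.06 in controls (SD, n = 3 and 5). The log2 difference was 1.13 (SE 0.29), on a scale with 0.5 added to each level, and its adjusted p of 0.0528 missed the threshold. Array pair 1 by itself gave 1.20 and array pair 2 gave 0.61, and a fit blocked on array pair gave 0.93 (adjusted p = 0.0659). These levels rested on 23 to 149 UMIs a mouse in GqCNO mice and 4 to 57 in controls; in the GqCNO mouse with 8.93 the exact 95% interval for counting error ran over 7.56 to 10.5, above every other mouse's interval but that of the GqCNO mouse with 5.72. An exact permutation test of the VTA difference gave a two-sided p of 0.0536 (adjusted p = 0.436 over 57 tests of single members).

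The call on Vgf in the VTA turned on single settings and mice. Its adjusted p was 0.000947 by edgeR's quasi-likelihood test on recovered counts, 0.0474 with a higher constant, 0.0281 without GqCNO mouse 781 and 0.0163 without GqVeh mouse 802. It was 0.277 without GqCNO mouse 801, where the difference fell to 0.80, and 0.398 without a filter on low genes. Against each control group by itself, Vgf was higher by 0.95 over GqVeh (adjusted p = 0.267) and by 1.40 over CNO alone (adjusted p = 0.0717), so neither difference passed. The difference from CNO alone did pass when blocked on array pair (1.27, adjusted p = 0.0373), by edgeR (adjusted p = 0.000404) and without mouse 781, 785 or 802 (adjusted p = 0.0277, 0.0424 and 0.0469). Vgf was the only member of the VTA that differed the same way from GqVeh and from CNO alone mice at a p under 0.05 before adjustment, which 3.9% of genes did; in the SN and CP no member did, beside 2.32% and 0.703% of genes.

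**Figure D2:**
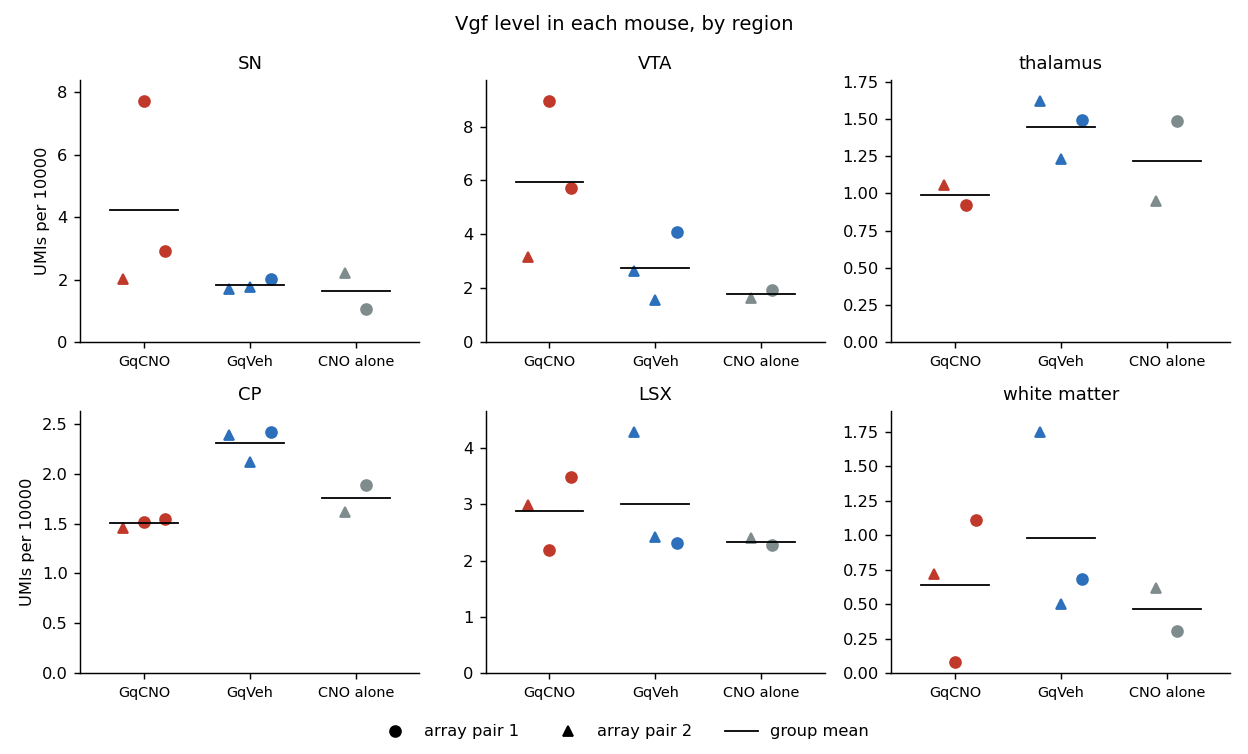
Vgf level (UMIs per 10000, y axis) in each mouse of the GqCNO, GqVeh and CNO alone groups in the 6 regions; symbols give the array pair and lines the group mean, and each panel has its own axis. In the VTA the GqCNO mice sit at 3.15 to 8.93, with the lowest below 1 GqVeh mouse; in the CP they sit at 1.45 to 1.55, below all 5 controls.

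In the SN, where discs were few, Vgf was 2.04, 7.71 and 2.91 in GqCNO mice, 1.72, 1.75 and 2.02 in GqVeh mice and 2.23 and 1.06 in CNO alone mice. The groups overlapped through 1 CNO alone mouse, and the 7.71 came from 6 UMIs in the shallowest column, of 7779 UMIs. The difference of 0.90 (SE 0.47), where TMM scaling moved the median of all genes by -0.19, had an adjusted p of 0.645, and array pair 1 gave 1.42 where array pair 2 gave 0.09. In the SN columns neuron markers summed to 32.1 to 59.1 in GqCNO mice and 39.5 to 86.4 in controls. Microglia markers summed to 34.7 to 67.3 in GqCNO mice and 3.44 to 44.7 in controls, so both lists overlapped. Of the microglia markers, 11 of 11 lay above 0 (median 1.22) and 2 were called higher, beside 23 of all 6174 genes. Within the controls they summed to 44.7, 20.7 and 20.2 in GqVeh mice and 5.84 and 3.44 in CNO alone mice. The part of these markers in the SN value was not tested. In the thalamus the level of Vgf was 1.06 and 0.922 in GqCNO mice and 0.95 to 1.62 in controls, a difference of -0.30 (adjusted p = 0.998). The response of Vgf was larger in the VTA than in the thalamus by 1.10 (SE 0.38, unadjusted p = 0.00735), and this too missed the threshold (adjusted p = 0.258). No member passed a test of a difference in response between 2 regions of one array, a test passed by 0.57% of genes for the VTA against the thalamus, 0.0156% for the SN against the thalamus and 0% for the 4 other pairs.

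Neuron, microglia and astrocyte markers moved in the same VTA columns. Oligodendrocyte markers overlapped, with a summed level of 112 to 156 in GqCNO mice and 58.5 to 162 in controls. All 10 neuron markers had a log2 difference below 0 (3 called lower, median -0.68), and their summed level was 33.6 to 50.1 in GqCNO mice and 64.7 to 82.9 in controls. The dopamine neuron markers fell too, with 6 of 9 tested called lower (median -1.40), while 7 of 11 microglia markers were called higher (median 1.44). Of all 6312 genes tested there, 20 were called lower and 76 higher. The microglia markers summed to 35.3 to 92.9 in GqCNO mice and 4.53 to 26.8 in controls. Within the controls they were at 26.5, 4.65 and 26.8 in virus-injected GqVeh mice and 4.54 and 4.53 in CNO alone mice. Of 8 astrocyte markers, 2 were called higher (6 above 0, median 0.54), and they summed to 30.9 to 40.2 in GqCNO mice and 14.3 to 24.2 in controls. The summed levels of the neuron, dopamine neuron, microglia and astrocyte lists did not overlap between the groups. The part of these shifts in the Vgf values was not tested. Correlation with Vgf was taken over the 16 SN and VTA columns (Pearson r on log2 levels, 5341 genes). The 5 highest genes were Ighm (0.82), Akap9 (0.78), Aqp4 (0.76), Ifit1 (0.76) and Tapbp (0.75). These columns share mice and arrays and include the group difference. The member most correlated with Vgf was Scg3 (0.47), and the least Pcsk1n (-0.46).

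**Figure D3:**
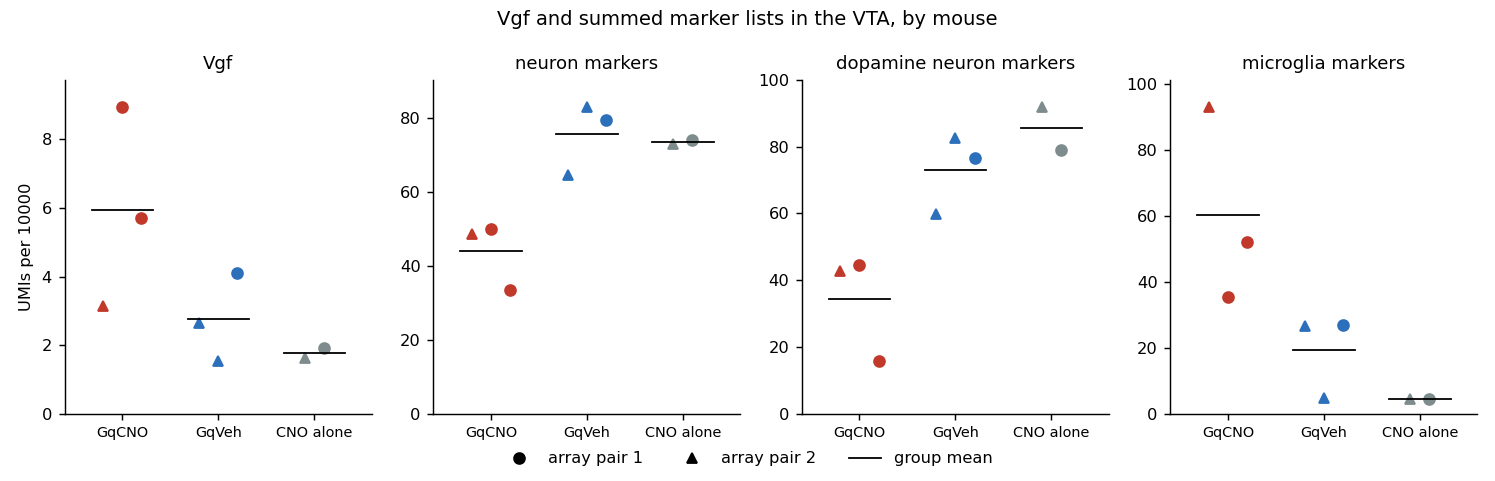
Vgf and the summed levels of the neuron, dopamine neuron and microglia marker lists (UMIs per 10000, y axes) in the VTA of each mouse, by group; symbols give the array pair and lines the group mean. Neuron markers of GqCNO mice (33.6 to 50.1) lie below those of all controls and microglia markers (35.3 to 92.9) above them, while Vgf overlaps.

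Among the other granins of the midbrain, Scg2 (secretogranin II, the precursor of secretoneurin) had the widest gap. In the SN its level was 5.44, 2.57 and 3.60 in GqCNO mice, 3.44, 6.67 and 10.7 in GqVeh mice and 8.76 and 10.8 in CNO alone mice. Of the controls, 1 GqVeh mouse lay among the GqCNO mice and 4 above them. These levels rested on 2 to 21 UMIs a mouse in GqCNO mice and 4 to 63 in controls. The SN columns of GqCNO mice 781 and 801 held 1 disc each and that of 804 held 5, against 3 to 7 discs in controls. The difference was -0.93 (SE 0.38, adjusted p = 0.492), and it came from array pair 1 (-1.67) more than from array pair 2 (-0.11). In the VTA, Scg2 was 11.1, 24.2 and 8.21 in GqCNO mice, against 10.3 to 13.6 in controls. One GqCNO mouse stood far above all others and another below all controls, and the difference was 0.12.

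Chga (chromogranin A) had 1.80, 2.46 and 0.746 in the VTA of GqCNO mice, 2.06, 1.94 and 4.80 in that of GqVeh mice and 2.54 and 2.23 in that of CNO alone mice. The groups overlapped (difference -0.59, SE 0.30, adjusted p = 0.482). Its relative Chgb was 3.60, 3.54 and 3.73 in the VTA of GqCNO mice and 2.14 to 4.80 in controls. These levels rested on 15 to 59 UMIs a mouse in GqCNO mice and 8 to 79 in controls. In the SN, Chgb was 9.51, 1.29 and 1.89 in GqCNO mice and 0 to 3.96 in controls; the 9.51 rested on 14 UMIs. Within array pairs the SN difference of Chgb had opposite signs, -0.98 and 2.59. Scg3, which binds Chga and helps to sort it into vesicles, was 2.72, 2.57 and 2.74 in the SN of GqCNO mice and 1.72 to 2.42 in controls. It was the only member without overlap in the SN, where 6.11% of genes did not overlap; its exact permutation p was 0.0357 (two-sided, adjusted p = 0.407 over 57 tests), from 2 to 17 UMIs a mouse.

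The convertases and their partners gave no call in the midbrain. Pcsk2, which cleaves many neuropeptide precursors, was 1.35, 1.92 and 1.24 in the VTA of GqCNO mice and 1.67 to 2.23 in controls. Scg5, the chaperone that Pcsk2 needs to mature, was 3.93, 4.02 and 2.24 in GqCNO mice and 3.40 to 4.94 in controls. Both leaned lower, by -0.29 and -0.39, with overlap. Pcsk1n, which codes for proSAAS, an inhibitor of Pcsk1, was 22.8, 27.8 and 22.6 in the VTA of GqCNO mice and 21.2 to 34.6 in controls. Pcsk1 was counted 0 to 6 times per mouse in the SN and 0 to 16 times in the VTA, and its difference was -0.34 (SE 0.56) and 0.19 (SE 0.35). Cpe, the carboxypeptidase, was 25.1, 15.0 and 26.4 in the VTA of GqCNO mice and 17.3 to 25.6 in controls, and differed by 0.08. No member of the VTA was without overlap, where 8.22% of all genes were. In the thalamus Cpe was the only such member, at 29.6 and 27.6 in GqCNO mice and 17.3 to 25.7 in controls (0.37), beside 7.64% of all genes.

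The 2 partner ratios did not pass. The log2 ratio of Scg5 to Pcsk2 averaged 0.94 ± 0.31 in the VTA of GqCNO mice and 1.04 ± 0.30 in that of controls (SD, n = 3 and 5; exact permutation p = 0.625, two-sided). The log2 ratio of Pcsk1n to Pcsk1 averaged 4.47 ± 0.30 in GqCNO mice and 4.97 ± 0.96 in controls (exact permutation p = 0.411). Over both ratios in the SN, VTA and CP, 6 tests in all, the smallest adjusted p was 0.771; 3 mice against 5 allow no p under 0.0179. In the CP, the deepest region, the Scg5 to Pcsk2 ratio was 0.22 ± 0.18 in GqCNO mice and 0.32 ± 0.28 in controls.

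In the CP, the target of SN dopamine neurons, Vgf lay in the opposite direction to the VTA. Its level was 1.45, 1.52 and 1.55 in GqCNO mice, 2.39, 2.12 and 2.42 in GqVeh mice and 1.62 and 1.89 in CNO alone mice, from 667 to 1903 UMIs a mouse. Every GqCNO mouse was below every control, and the CNO alone mice lay between GqCNO and GqVeh mice. Means were 1.51 ± 0.05 in GqCNO mice and 2.09 ± 0.34 in controls (SD, n = 3 and 5). The log2 difference was -0.44 (SE 0.10, on a scale with 0.05 added), with an unadjusted p of 0.000963 and an adjusted p of 0.651. Each array pair gave -0.46, and in a fit blocked on array pair the difference passed (-0.47, adjusted p = 0.00325), as 47 genes in all then did. Against GqVeh mice the difference was -0.59 (adjusted p = 0.232 unblocked and 0.000262 blocked), and against CNO alone mice it was -0.21. The VTA and CP values come from separate arrays. Regions were compared only within an array, so the difference between these 2 responses was not tested.

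Chga and Scg2 also varied in the CP. Chga was 0.838, 0.727 and 0.842 in GqCNO mice, 1.13, 0.995 and 0.982 in GqVeh mice and 0.962 and 0.884 in CNO alone mice, with no overlap (-0.29, SE 0.10, adjusted p = 0.999). Scg2 was 2.40, 2.51 and 2.32 in GqCNO mice, 3.18, 3.19 and 2.92 in GqVeh mice and 2.07 and 2.27 in CNO alone mice. Scg2 thus separated GqVeh mice from both other groups: the CNO alone mice were the lowest of all, and GqCNO mice differed from GqVeh mice by -0.36 (adjusted p = 0.994). GqVeh mice exceeded CNO alone mice by 0.51 in Scg2, which passed when blocked on array pair (adjusted p = 0.0165) and not otherwise (unadjusted p = 0.00113), and by 0.39 in Vgf. Both groups were controls. Across the 8 mice, which include the group difference, Vgf correlated with Chga at r = 0.81 and with Scg2 at r = 0.78 in the CP.

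**Figure D4:**
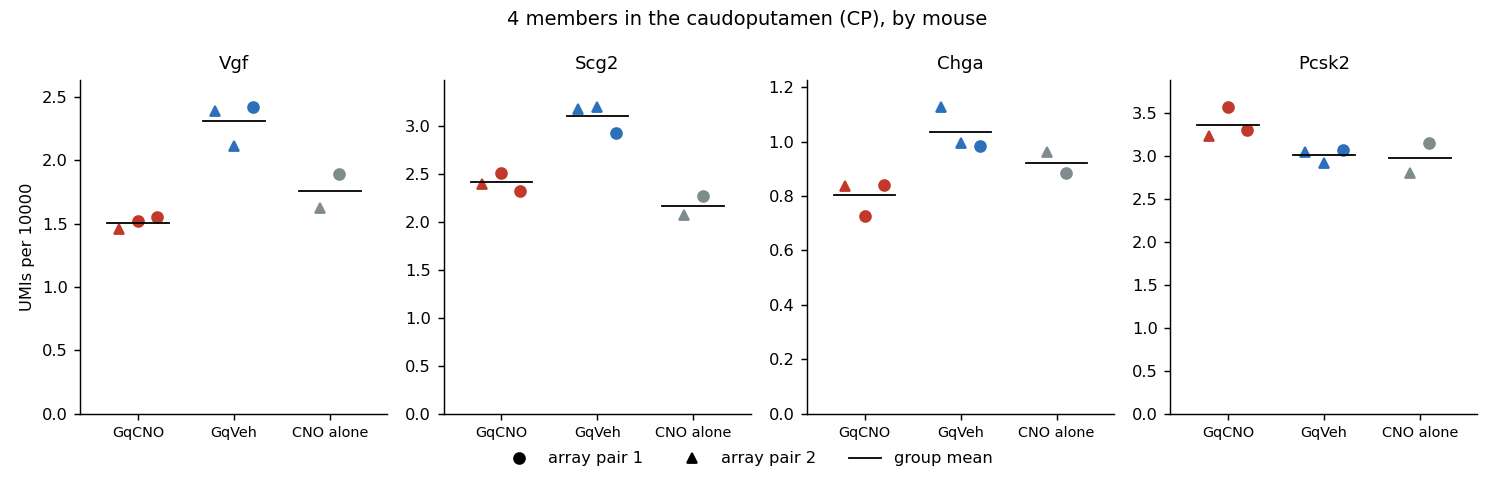
Levels of Vgf, Scg2, Chga and Pcsk2 (UMIs per 10000, y axes from 0) in the CP of each mouse, by group; symbols give the array pair and lines the group mean. GqCNO mice lie below all controls in Vgf and Chga and above all controls in Pcsk2, while in Scg2 the CNO alone mice are lowest.

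Pcsk2 went the other way in the CP, at 3.23, 3.57 and 3.30 in GqCNO mice, 3.05, 2.92 and 3.07 in GqVeh mice and 2.81 and 3.15 in CNO alone mice. The groups did not overlap, but the difference was small (0.16) and its exact permutation p of 0.0179, the smallest these mice allow, became 0.407 after adjustment. Together Vgf, Chga and Pcsk2 were 3 of 10 members without overlap in the CP, where 3.07% of all genes were. Cpe (0.17), Scg3 (0.13), Pcsk1n (0.09) and Scg5 (0.06) leaned higher, Chgb (-0.02) and Pcsk1 (0.00) lay at 0, and all of these overlapped. Neuron markers in the CP summed to 48.7 to 51.9 in GqCNO mice and 47.8 to 54.5 in controls, and striatal projection neuron markers to 51.8 to 53.5 and 50.5 to 57.1, so both lists overlapped between the groups. Astrocyte markers summed to 21.3 to 22.1 in GqCNO mice and 17.8 to 21.2 in controls (8 of 8 above 0, none called, median 0.13), and blood cell markers to 11.97 to 14.4 in GqCNO mice and 5.23 to 12.6 in controls (5 of 5 above 0, none called, median 0.64). The part of either in the CP values was not tested.

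Most genes of a list induced by neuronal activity leaned lower in the CP, as Vgf did. Of 17 tested from a list of 18 that does not hold Vgf, 16 had a log2 difference below 0, with a median of -0.49 where the median of all 10813 genes was 0.00; none was called, and 9 were lower at an unadjusted p under 0.05, as were 2.21% of all genes. Egr4 (-0.69), Egr1 (-0.75), Npas4 (-0.97) and Arc (-1.04), all transcribed within minutes of strong firing, were among the 9. These counts come from the same mice, so the genes are not independent of one another. The summed level of the list was 4.55, 5.04 and 8.13 in GqCNO mice and 7.44 to 11.3 in controls, with overlap. The GqCNO mouse with 8.13 was under only the highest control, so the lower sum rested on the other GqCNO mice. In the midbrain few of the list were high enough to test, 2 in the SN and 1 in the VTA, all above 0 and none with an unadjusted p under 0.05. The summed level there was 1.36, 5.14 and 2.91 in the SN of GqCNO mice and 0.175 to 1.82 in that of controls, and in the VTA it was 1.69 to 2.49 and 1.37 to 2.11, with overlap in both. The SN sums rested on few UMIs: 6 to 16 of the 18 genes were at 0 in GqCNO mice and 12 to 17 in controls. The 5.14 came from the column of 7779 UMIs, with 15 genes at 0.

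In LSX and white matter no member was without overlap, beside 3.49% and 2.37% of all genes. Vgf in the LSX was 2.99, 2.18 and 3.48 in GqCNO mice and 2.27 to 4.28 in controls. In white matter it was 0.715, 0.0837 and 1.11 in GqCNO mice and 0.307 to 1.75 in controls, from as few as 1 UMI.

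No member passed when GqCNO mice were set against one control group, nor between the control groups. Of the SN genes tested, 0.194% passed for GqCNO against GqVeh mice, 0.615% for GqCNO against CNO alone mice and 0.0648% for GqVeh against CNO alone mice. For the VTA these shares were 0.475%, 1.12% and 0.0792%, and for the CP 0.0462%, 0% and 0%. The first 2 of these comparisons share the GqCNO mice.

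Levels of these genes differed between brain regions. Within control mice, each region was compared with the others of the same array. Scaling the columns by TMM factors in place of their totals moved the median log2 difference of all genes by -0.13 for the SN against the VTA, -0.19 for the SN against the thalamus, 0.19 for the CP against the LSX and -0.23 for the LSX against white matter. With it the share of calls that were higher became 10.3% in place of 33.0% for the SN against the thalamus, 34.6% in place of 47.9% for the VTA against the thalamus, 60.6% in place of 37.1% for the CP against the LSX and 45.0% in place of 68.0% for the LSX against white matter. No member's call changed direction. In the VTA, 5 of the 10 genes were called higher than in the thalamus, beside 12.5% of all genes called higher, and none lower, beside 13.6%. Scg2 was 12.1 ± 1.52 in the VTA and 5.39 ± 2.24 in the thalamus (SD, n = 5; log2 difference 1.16, SE 0.19, adjusted p = 0.000187), and this call held in all 12 settings run. Pcsk1n was higher by 0.71 (adjusted p = 0.00862), Pcsk1 by 0.89 (adjusted p = 0.00373; 0.55 to 2.02 over the settings, since 4 of 5 thalamic columns were at 0), Vgf by 0.57 (adjusted p = 0.0288) and Scg5 by 0.53 (adjusted p = 0.0269). Vgf passed in 6 and Scg5 in 5 of the 12 settings. The call on Vgf was lost without GqVeh mouse 784 or 802 or CNO alone mouse C1W7 (adjusted p = 0.0850, 0.150 and 0.0855), that on Pcsk1n without C1W7 (adjusted p = 0.0770), and that on Scg5 without any one of 784, 802, C1W7 and C2W2 (adjusted p = 0.0541 to 0.101). Pcsk1 was counted in 4 of 5 VTA columns of controls and in 1 of 5 thalamic ones. The filter on low genes used the mean over both regions. Pcsk1 passed it only through the VTA (mean 0.582 in controls, against 0.0299 in the thalamus). Its call, 1 of the 5 higher ones, was therefore not read as a difference between the regions. Chgb, Pcsk2 and Cpe differed by at most 0.11.

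In the SN, Pcsk1 was likewise called above the thalamus (0.93, adjusted p = 0.0135), alone among the members, and not without CNO alone mouse C2W2 (adjusted p = 0.0704). Of all genes, 4.71% were called higher there and 9.55% lower. Pcsk1 passed the filter on low genes only through the SN (mean 0.608 in controls, against 0.0299 in the thalamus). This call too was not read as a difference between the regions. Scg2 leaned lower in the SN than in the VTA, at 8.08 ± 3.10 and 12.1 ± 1.52 (SD, n = 5; -0.64, adjusted p = 0.928), and no gene was called between the SN and VTA in either direction (0%; at an unadjusted p under 0.05, Scg2 was the only member, beside 4.17% of all genes).

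**Figure D5:**
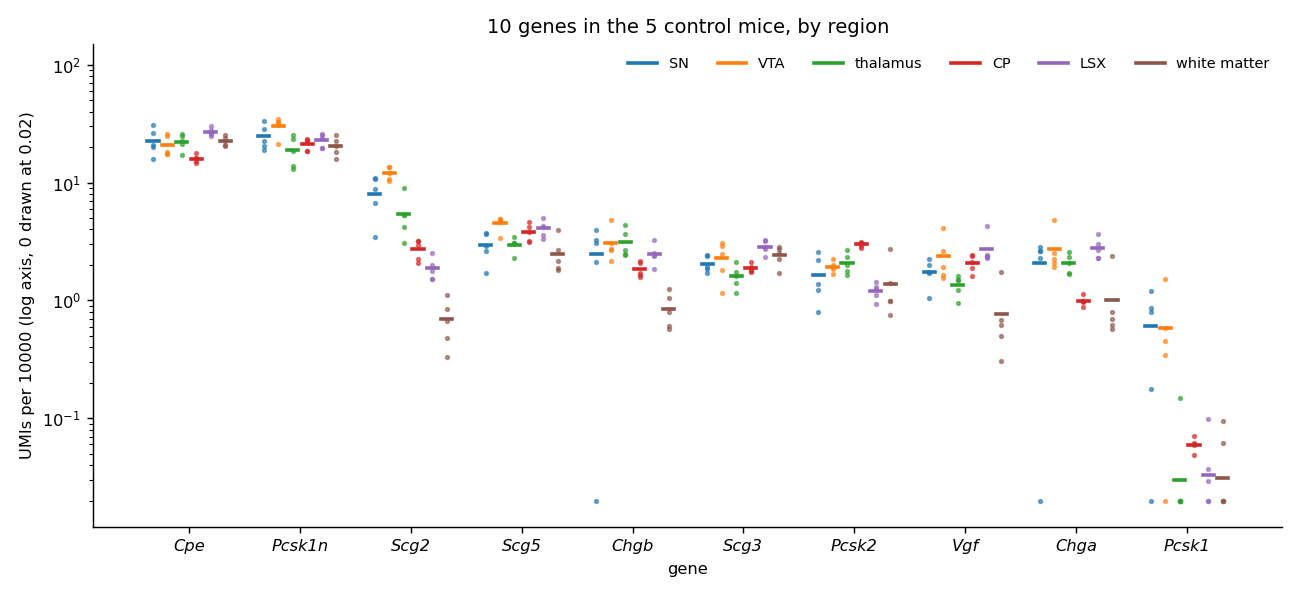
Levels of the 10 genes (UMIs per 10000, log y axis, 0 drawn at 0.02) in the 5 control mice in each of the 6 regions; points are mice and bars means. Mean Scg2 is 12.1 in the VTA and 0.690 in white matter, while mean Pcsk1n stays between 18.8 and 30.4. The midbrain and striatal regions come from separate arrays and were not tested against each other.

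On the striatal arrays, Chga was lower in the CP than in the LSX, at 0.990 ± 0.087 and 2.78 ± 0.557 in controls (-1.43, SE 0.11, adjusted p = 0.00011). Cpe (-0.75), Scg3 (-0.60) and Chgb (-0.41) were called lower in the CP as well, so that 4 of 9 members were lower, beside 18% of all genes. Pcsk2 was higher in the CP, at 3.00 ± 0.136 and 1.20 ± 0.188 (1.29, adjusted p = 0.000953), and Scg2 by 0.54 (adjusted p = 0.0213); this made 2 of 9, beside 10.7% of all genes. Scg5, the chaperone of Pcsk2, did not pass (-0.11, adjusted p = 0.498). The call on Chgb held in 4 of 12 settings and was lost without any one mouse (adjusted p = 0.0530 to 0.132), and that on Scg2 held in 8 and was lost without any one of 785, 802, C1W7 and C2W2 (adjusted p = 0.0618 to 0.0853). The other 4 calls held in all 12.

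Against white matter, 5 of 9 members were called higher in the CP (22% of all genes) and 5 of 9 in the LSX (20.8%). Scg2 (1.99 and 1.45), Vgf (1.59 and 1.94), Chgb (1.12 and 1.53) and Scg5 (0.64 and 0.75) were called in both. Pcsk2 was called only for the CP (1.24) and Chga only for the LSX (1.61). Cpe was called lower in the CP than in white matter (-0.49, adjusted p = 0.0319; 14.7% of all genes lower), and no member was lower in the LSX (9.76%). The call on Cpe was lost without any one mouse (adjusted p = 0.0630 to 0.0887), and those on Scg5 without any one of 785, 802, C1W7 and C2W2 (adjusted p = 0.0505 to 0.130 for the CP and 0.0572 to 0.132 for the LSX). Cpe and Pcsk1n were not called lower in white matter than in either grey region: Cpe was 16.0 ± 1.18 in the CP and 22.5 ± 2.05 in white matter, and Pcsk1n was 21.2 ± 2.46 in the CP and 20.5 ± 3.71 in white matter (SD, n = 5). In control white matter the summed neuron markers ran over 16.1 to 45.9 and oligodendrocyte markers over 408 to 884.

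Few genes of the wider pathway passed with treatment. Of other processing enzymes, 6 of 13 were tested in the VTA and none was called (4 above 0, median 0.14). Of genes for dense-core vesicle assembly and release, 18 of 22 were tested there and 14 lay below 0 (median -0.30, all genes -0.06), none called. Of peptide precursors, 10 of 17 were tested in the VTA with none called; in the SN, 1 of 6 was called lower, Cck (-1.97, SE 0.52, adjusted p = 0.0237), the cholecystokinin precursor that midbrain dopamine neurons also express. In the SN, 4 of 10 dopamine neuron markers were called lower too (median -1.24), beside 17 of all 6174 genes. The response of Cck was lower in the VTA than in the thalamus by -2.29 (adjusted p = 0.0032).

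Between regions, more precursors and enzymes were called. In the VTA of controls, 4 of 6 processing enzymes tested were called higher than in the thalamus, beside 12.5% of all genes, and none lower, beside 13.6%. Among the 4 were Pam, which amidates peptides (0.94), Ctsl (0.97) and Qpct (0.72). In the CP against the LSX, 5 of 9 peptide precursors were called higher, beside 10.7% of all genes, and 2 lower, beside 18%. The higher ones were led by Tac1 (4.70), the substance P precursor of striatal neurons, and Npy (3.81), and the lower ones by Pnoc (-4.22). Of dense-core vesicle genes, 8 of 21 were called lower in the CP than in the LSX, beside 18% of all genes, and none higher, beside 10.7%. The 8 were led by Baiap3 (-2.69), Syt7 (-0.999) and Cadps (-0.95). Members went both ways here, with Chga and Scg3 among those lower and Pcsk2 and Scg2 higher. The list counts were not redone with TMM scaling, which changed the share of higher calls between these regions.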

How the data were processed

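The authors deposited a signal per gene, region and mouse: an average over discs, scaled to a median. Per the labels it was made with Space Ranger on mm10 (versions not given in the sources used here). In every column low values were whole multiples of 1 step (100% of those under 200 steps, within 0.05 of a step), so UMI counts were recovered, and each column was rescaled to 10000. Genes with a mean level of 0.25 (midbrain) or 0.05 (striatum) were fitted per region with limma 3.58.1 in R 4.3.3 on log2(level + 0.5) or log2(level + 0.05), with a mean-variance trend. Regions were compared by within-mouse differences. edgeR 4.0.16 was an alternative. Exact intervals cover counting error only. The members and gene lists were chosen with earlier results of these data known. Named list genes are the called ones of smallest p, up to 3 per list and region; the 4 activity genes named were chosen after their values were seen. On simulated counts, 18% of genes changed 2-fold and 97% of those changed 4-fold were recovered in the VTA (6090 genes). The shares were 7% and 75% in the SN, 72% and 100% in the CP (10800 genes) and 9% and 100% for the CP against the LSX. Of the calls in the SN, VTA and CP, 6.82%, 4.17% and 8.99% were of unchanged genes. Changed genes lay well above the filter, and all genes were given the same spread between mice. The shares may not hold for members with a wider spread. Region labels per disc, deposited by the authors, served only to count discs; disc positions and image scale factors were not used. Whether the mice are separate cohorts is unstated, and p-values measure the spread between these mice.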

Additional observations from a re-analysis of the deposited data

Results flagged for a closer look

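In 60 sets of 5 control mice (10 genes in 6 regions), 8 had 1 mouse far from the other 4 by Dixon's outlier test. The test's rate of about 1 in 20 holds for normal values in independent sets. These sets share the same 5 mice and some rest on few UMIs, so 8 is not read as an excess. GqVeh mouse 802 accounted for 4. In the VTA its Chga was 4.80 (others 1.94 to 2.54), its Scg5 3.40 (others 4.65 to 4.94) and its Pcsk1n 21.2 (others 30.9 to 34.6), and it was the only control with Pcsk1 in the thalamus, at 0.149 from 3 UMIs.

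GqVeh mouse 784 accounted for the other 4. Its Vgf was 4.28 in the LSX (others 2.27 to 2.42) and 1.75 in white matter (others 0.307 to 0.681), and its Chga was 2.38 in white matter (others 0.568 to 0.798) and 0 in the SN from 0 UMIs (others 2.28 to 2.82). In that white matter column the summed neuron markers were 45.9, the highest of the 5 controls, and the oligodendrocyte markers 408, the lowest.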

How the results depend on the processing

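Counts of members called for GqCNO against all controls stayed at 0 in the SN, thalamus, LSX and white matter under every setting after adjustment. In the VTA the count was 1 (Vgf) with a higher constant and by edgeR, and 0 to 1 as each mouse was left out; against CNO alone it was 1 when blocked on array pair and by edgeR, and 0 to 1 as mice were left out. In the CP the block gave 1 for GqCNO against all controls and against GqVeh (Vgf) and for GqVeh against CNO alone (Scg2). The methods' t-test, unadjusted, gave in the SN 1 (all controls), 1 (GqVeh), 2 (CNO alone) and 1 (GqVeh against CNO alone), in the VTA 1 and 2 (all controls, CNO alone), and in the CP 3, 4 and 2 (all controls, GqVeh, GqVeh against CNO alone), where 3.62 to 9.85% of all genes had such a p (4.42, 5.65 and 3.62% in the 3 of the CP); after Benjamini-Hochberg adjustment it gave 0 in each.

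For the SN against the thalamus the count was 0 without a filter and 0 to 2 as mice were left out; for the VTA against the thalamus it was 2 with a lower constant, 3 without a filter, 3 with TMM scaling and 2 to 6 as mice were left out. The SN ratio of Pcsk1n to Pcsk1 turned to -0.070 with a higher constant and ran from -0.219 to 0.397 as mice were left out, and the VTA ratio of Scg5 to Pcsk2 from -0.263 to 0.043. The causes were not tested. No paired analysis was possible because each mouse belongs to 1 group, so GqCNO mice share none with the controls; array pair was the block above, and regions were compared within mice. No single member passing at an unadjusted p under 0.05 changed sign in any setting. Depth limits the SN most.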
